A study of Mus musculus with 18 samples.

Results

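The genes described here are 9 YAP1 target genes: Cyr61, Ctgf, Ankrd1, Amotl2, Ajuba, Tgfb2, F3, Crim1 and Arhgef17. They were taken by name, as the lines of the deposited table that carry these symbols (Cyr61 and Ctgf are older symbols, now Ccn1 and Ccn2), and each symbol was found on 1 line. The names were chosen with earlier results of these data known, so the list is not blind to the values. They are 9 of 34745 genes in the table, and all 9 were among the 14241 genes that passed a filter on low counts. F3 passed it through the groups in which it was higher, since its counts ran from 0 to 56.

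The study asked how Zmat1, a zinc finger gene, affects osteoclasts, the cells that resorb bone. Bone marrow was taken from Zmat1-/- mice, which lack the gene in the whole animal, and from wild-type littermates, all 4 to 8 weeks old. Marrow cells were grown with M-CSF (macrophage colony-stimulating factor), which gives bone marrow-derived macrophages, and then with RANKL (the cytokine that turns macrophages into osteoclasts). The 18 bulk RNA sequencing libraries fall into 6 groups of 3: wild type (WT) or Zmat1 knockout (KO) with M-CSF alone (day 0), and each with M-CSF and RANKL for 1 day or 3 days. No sorting of the cells is described, so the cultures could hold marrow cells other than macrophages.

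YAP1 and its relative TAZ (the product of Wwtr1) are transcriptional coactivators. The Hippo kinases hold them in the cytoplasm, and when these are inactive, as in spread cells on a stiff surface, YAP1 and TAZ enter the nucleus and bind DNA through the TEAD factors. CYR61 and CTGF, secreted matrix proteins, are the most used readouts of this activity, which is best known in fibroblasts, epithelium and smooth muscle.

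TEAD factors bind the letters GGAATG, which read CATTCC on the other strand. Promoter sequences came from RefSeq (GRCm38.p6), which gave a window for 7 of the 9 genes and none used here for Ctgf and Arhgef17. The 250 bases before the start site held these letters in 5 of the 7 windows, and 12.6% of the 32851 windows of that length over all genes held them. Of 14 other YAP1 targets from a published signature, 9 genes had a window, and 2 of these 9 held the letters. Windows with at least 2 matches were 1.02% of all, and Ankrd1 and Ajuba had 2 each. The 5 windows that hold a match are shown, 5′ to 3′ along the strand of the gene, with each match in capitals, because TEAD factors are the DNA-binding partners of YAP1.
Cyr61, minus strand, chr3:145649986-145650235: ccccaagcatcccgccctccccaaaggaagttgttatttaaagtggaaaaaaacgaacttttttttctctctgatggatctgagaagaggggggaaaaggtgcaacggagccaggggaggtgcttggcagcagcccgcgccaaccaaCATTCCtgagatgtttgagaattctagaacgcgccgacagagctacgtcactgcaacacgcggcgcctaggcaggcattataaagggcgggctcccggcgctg
Ankrd1, minus strand, chr19:36119845-36120094: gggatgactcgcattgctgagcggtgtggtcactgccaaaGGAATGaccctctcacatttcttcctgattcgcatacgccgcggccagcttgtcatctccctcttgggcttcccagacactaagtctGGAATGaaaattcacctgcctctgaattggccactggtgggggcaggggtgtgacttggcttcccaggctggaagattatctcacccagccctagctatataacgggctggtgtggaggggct
Amotl2, plus strand, chr9:102717554-102717803: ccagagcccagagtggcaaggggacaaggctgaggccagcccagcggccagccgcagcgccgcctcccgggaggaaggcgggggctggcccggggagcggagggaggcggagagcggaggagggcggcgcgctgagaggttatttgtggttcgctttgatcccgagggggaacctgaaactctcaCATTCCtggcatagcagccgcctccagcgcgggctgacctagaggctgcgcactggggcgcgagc
Ajuba, minus strand, chr14:54577662-54577911: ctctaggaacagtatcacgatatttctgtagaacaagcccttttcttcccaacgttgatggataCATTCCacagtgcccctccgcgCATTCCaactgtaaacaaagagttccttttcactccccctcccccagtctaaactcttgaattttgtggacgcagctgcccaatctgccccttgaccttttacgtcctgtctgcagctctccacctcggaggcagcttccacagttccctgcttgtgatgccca
Crim1, plus strand, chr17:78199998-78200247: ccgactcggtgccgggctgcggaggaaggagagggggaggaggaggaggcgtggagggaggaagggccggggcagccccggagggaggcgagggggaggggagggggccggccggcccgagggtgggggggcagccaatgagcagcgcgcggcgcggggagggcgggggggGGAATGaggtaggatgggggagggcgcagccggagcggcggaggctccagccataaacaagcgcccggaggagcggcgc

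Counted from the start site, the first base of the match stood at -103 in Cyr61, -65 in Amotl2 and -79 in Crim1. In Ankrd1 the matches began at -210 and -123, and in Ajuba at -186 and -164. The Amotl2 start used by RefSeq lies inside the span of the gene in the deposited table. The windows of Tgfb2 and F3 held no match. The F3 window held 2 copies of the AP-1 letters TGANTCA (either strand reads the same), which 6.75% of all windows held and no other window of these 7 did. The CArG box, the site of serum response factor, was in none of the 7 and in 1.47% of all windows. A match is only a string of letters, and no binding was measured here.

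Depth was even: the libraries held 13789775 to 17559958 counts. Levels are given as CPM, counts scaled to library size with the trimmed mean of M values, in the order of the libraries numbered 1, 2 and 3. WT day 1 holds 2 libraries numbered 1, here given first (single hyphen in its title) and second (double hyphen), and a library numbered 2. Zmat1 itself did not separate the labels (2.19 to 7.50 CPM in the libraries labelled WT and 3.49 to 7.61 CPM in those labelled KO), so groups are called by their labels. The macrophage markers were high on day 0 (8 of 8 tested, summed level 28770 to 59254 CPM), and 9 of 10 osteoclast markers rose from day 0 to day 3 in each label. The stromal and osteoblast markers were also present (24 of 25 tested, with Bglap at 3 or fewer counts in every library and none at 0 throughout). Their summed level was 132 to 5786 CPM in WT day 0, 376 to 3471 CPM in WT day 1 and 13497 to 17282 CPM in WT day 3. In KO it was 1379 to 4434 CPM on day 0, 3072 to 9840 CPM on day 1 and 24531 to 34172 CPM on day 3. Col1a1, the chain of type I collagen made by fibroblasts and osteoblasts, serves as the stromal reference below. In bulk RNA, fewer cells of a type and less RNA per cell cannot be told apart.

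The title style also split the libraries: 5 of the 18 had a double hyphen in their title, all from days 0 and 1 (WT day 0 library 1, WT day 1 double-hyphen library 1, KO day 0 library 2, and KO day 1 libraries 1 and 2). What the styles stand for is not given. In each of these 4 groups the double-hyphen libraries were lower than the single-hyphen ones for 8 or 9 of the 9 YAP1 target genes, with F3 the exception in 3 groups, while 30.6%, 41.1%, 39.6% and 43% of all genes tested were lower in this way in WT day 0, WT day 1, KO day 0 and KO day 1. They were lower for Col1a1 in all 4. No day 3 library had a double hyphen, so title style and day overlap in part, and values without these 5 libraries are given beside the day 3, label and correlation results.

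Per length of transcript, the secreted CYR61 and CTGF had the highest RNA levels of the 9. On the deposited FPKM scale, which divides reads by transcript length and library depth, Cyr61 was first in 15 of 18 libraries, with a median of 79.3 FPKM, and Ctgf second in 15, with a median of 62.4 FPKM. Cyr61 was above Ctgf in 16 of the 18 libraries, the exceptions being KO day 1 library 3 and KO day 3 library 3, while the ranges of the 2 genes overlapped in every group. Ankrd1 (median 12.8 FPKM) and Crim1 (8.52 FPKM) came next, and their libraries overlapped in every group except WT day 3. Ajuba (3.80 FPKM), Arhgef17 (3.10 FPKM) and Amotl2 (2.83 FPKM) overlapped their neighbours in the order in every group, except that Amotl2 stood clear of Tgfb2 in WT day 3. Tgfb2 (2.01 FPKM) was eighth in 16 libraries and F3 (0.297 FPKM) last in 16. F3 did not overlap Tgfb2 in any group but those of WT days 0 and 1.

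Cyr61, whose protein binds integrins in the matrix, had 5.28, 31.4 and 149.9 CPM in WT day 0, 75.8, 14.3 and 62.3 CPM in WT day 1, and 256, 343 and 195 CPM in WT day 3. The KO libraries had 235, 46.1 and 221 CPM on day 0, 89.5, 72.2 and 171 CPM on day 1, and 298, 364 and 441 CPM on day 3. Every day 3 library was above every day 0 library of its label, and the WT day 0 libraries differed among themselves 28.4-fold. The mean went from 62.2 ± 77.1 to 265 ± 74.3 CPM in WT (SD, n = 3) and from 168 ± 105 to 368 ± 71.9 CPM in KO.

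Ctgf, whose matrix protein is a growth factor modulator linked to fibrosis, had 12.2, 51.5 and 335 CPM in WT day 0, 153, 22.2 and 118 CPM in WT day 1, and 413, 666 and 229 CPM in WT day 3. In KO it had 397, 98.9 and 446 CPM on day 0, 195, 144 and 566 CPM on day 1, and 439, 578 and 1329.5 CPM on day 3. Unlike those of Cyr61, its day 0 and day 3 libraries overlapped in both labels.

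**Figure D1:**
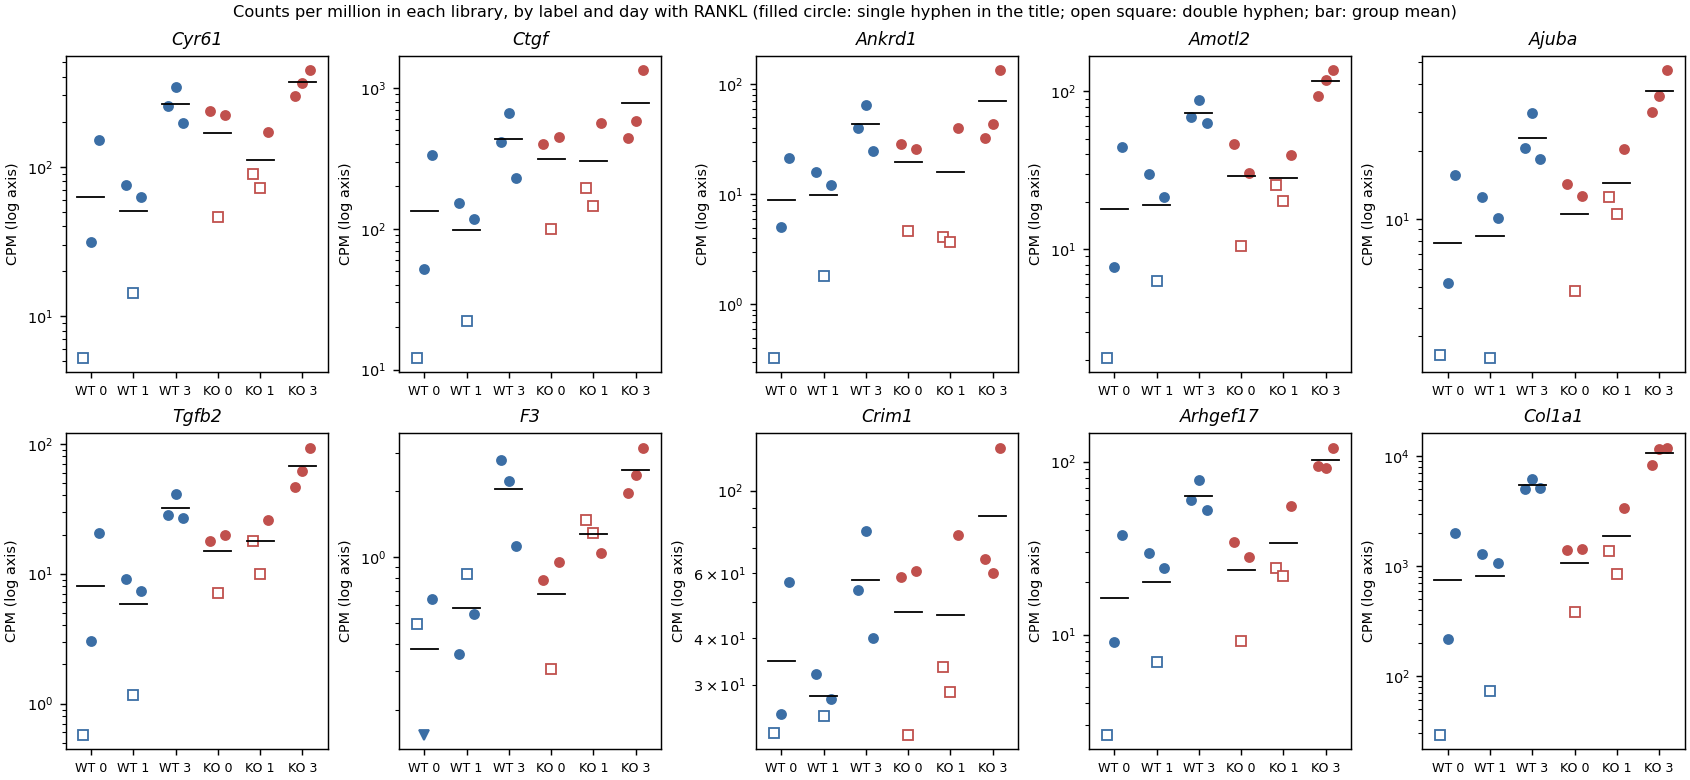
Level in CPM (log axis) of each YAP1 target gene and of Col1a1 in the 18 libraries, by label (WT blue, KO red) and day with RANKL (0, 1, 3); circles are single-hyphen and open squares double-hyphen libraries, bars are group means, and the triangle is the F3 count of 0 in WT day 0 library 2. The day 3 groups stand highest for every gene, and the open squares lie at the bottom of their groups for Cyr61 (5.28 CPM in WT day 0) and most others.

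The next 4 genes act inside the cell. Ankrd1, a nuclear and sarcomeric ankyrin repeat protein, had 0.330, 5.11 and 21.5 CPM in WT day 0, 15.9, 1.83 and 12.1 CPM in WT day 1, and 40.5, 65.5 and 24.6 CPM in WT day 3. Its KO levels were 28.6, 4.69 and 25.6 CPM on day 0, 4.10, 3.72 and 40.0 CPM on day 1, and 32.8, 43.7 and 134 CPM on day 3. It had the widest range of the genes above 0 in every library, 406-fold from the lowest library to the highest, and KO day 3 library 3 stood far above the other 2 of its group. The lowest library, WT day 0 library 1, held only 4 Ankrd1 counts, so the size of this range is uncertain.

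Amotl2, an angiomotin that binds YAP1 and holds it at cell junctions, had 2.06, 7.74 and 44.3 CPM in WT day 0, 29.9, 6.25 and 21.3 CPM in WT day 1, and 69.3, 88.1 and 62.6 CPM in WT day 3. The KO values were 46.6, 10.5 and 30.3 CPM on day 0, 25.5, 20.2 and 39.6 CPM on day 1, and 93.0, 118 and 136 CPM on day 3. The day 3 libraries stood above all those of day 0 in both labels, and on day 3 every KO library stood above every WT one.

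Ajuba, a LIM protein that inhibits the Hippo kinases, had 2.47, 5.19 and 15.7 CPM in WT day 0, 12.5, 2.42 and 10.1 CPM in WT day 1, and 20.7, 29.5 and 18.5 CPM in WT day 3. In KO the levels were 14.3, 4.77 and 12.7 CPM on day 0, 12.5, 10.5 and 20.5 CPM on day 1, and 29.96, 35.3 and 45.8 CPM on day 3. Neither label's day 0 and day 3 libraries overlapped.

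Arhgef17, a guanine nucleotide exchange factor, had 2.64, 9.06 and 37.4 CPM in WT day 0, 29.7, 6.92 and 24.1 CPM in WT day 1, and 59.6, 78.6 and 52.3 CPM in WT day 3. Its KO values were 34.1, 9.23 and 27.9 CPM on day 0, 24.3, 21.8 and 55.1 CPM on day 1, and 93.8, 91.5 and 121 CPM on day 3. The day 3 libraries again stood clear of day 0 in each label.

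The last 3 are surface or signalling proteins. Tgfb2, a ligand of the TGF-beta receptors, had 0.577, 3.02 and 20.5 CPM in WT day 0, 9.14, 1.17 and 7.30 CPM in WT day 1, and 28.1, 41.1 and 26.9 CPM in WT day 3. For KO these were 17.9, 7.08 and 19.9 CPM on day 0, 17.7, 10.0 and 25.9 CPM on day 1, and 46.6, 61.5 and 93.5 CPM on day 3. Its KO libraries stood above all WT ones on day 1, as did those of F3, and on day 3. The share of all genes that stood apart by label on day 1 was not computed. The Tgfb2 libraries of day 0 and day 3 did not overlap in either label.

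Crim1, a membrane protein that binds bone morphogenetic proteins, varied least, 5.94-fold over the 18 libraries. It had 22.3, 25.0 and 56.8 CPM in WT day 0, 31.99, 24.7 and 27.4 CPM in WT day 1, and 54.0, 78.0 and 40.1 CPM in WT day 3. The KO libraries held 58.5, 21.996 and 60.6 CPM on day 0, 33.5, 28.6 and 76.1 CPM on day 1, and 65.3, 59.9 and 131 CPM on day 3. Its day 0 and day 3 libraries overlapped in both labels.

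F3, tissue factor, which starts coagulation, was close to the limit of detection. It had 0.495, 0 and 0.644 CPM in WT day 0, 0.361, 0.833 and 0.551 CPM in WT day 1, and 2.79, 2.23 and 1.12 CPM in WT day 3. With KO it had 0.784, 0.308 and 0.946 CPM on day 0, 1.47, 1.29 and 1.04 CPM on day 1, and 1.97, 2.39 and 3.17 CPM on day 3. All 9 genes had their highest level in KO day 3 library 3, and 6 of the 9 their lowest in WT day 0 library 1.

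The first comparison asks how the genes differed between day 3 with RANKL and day 0. In the libraries labelled WT, 3 of the 9 rose past an adjusted p of 0.05 (edgeR quasi-likelihood test over 14241 genes), where 23.7% of all genes tested were called higher. These were Arhgef17 (log2 fold change 1.95 ± 0.74 SE, adjusted p = 0.0407), Amotl2 (2.02 ± 0.80, adjusted p = 0.0482) and F3 (2.40 ± 0.70, adjusted p = 0.0108). F3 passed the filter through the groups in which it was high, day 3 among them, so its call is given as a description and 2 of the other 8 were called. All 9 log2 fold changes were above 0, with a median of 1.98 against -0.03 over all genes. Ajuba (1.55, adjusted p = 0.0501), Cyr61 (2.09, adjusted p = 0.0623) and Tgfb2 (1.98, adjusted p = 0.0671) missed the threshold, as did Ankrd1 (2.27, adjusted p = 0.116), Ctgf (1.71, adjusted p = 0.162) and Crim1 (0.72, adjusted p = 0.217). For 7 of the 9 every day 3 library stood above every day 0 library, and 31.5% of all genes did so.

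In KO, 3 of the 9 rose as well, with 20.2% of all genes called higher: Ajuba (1.81 ± 0.62 SE, adjusted p = 0.0300), Arhgef17 (2.10 ± 0.74, adjusted p = 0.0338) and F3 (1.87 ± 0.66, adjusted p = 0.0336). The same limit holds for F3, and 2 of the other 8 were called. The median of the 9 log2 fold changes was 1.83, against -0.01 over all genes. Tgfb2 (2.17, adjusted p = 0.0532) and Amotl2 (1.99, adjusted p = 0.0564) were near the threshold, and Ankrd1 (1.83, adjusted p = 0.204), Cyr61 (1.13, adjusted p = 0.302), Ctgf (1.32, adjusted p = 0.295) and Crim1 (0.86, adjusted p = 0.160) were not. Again 7 of the 9 did not overlap between the days, against 29.4% of all genes. Same-numbered KO libraries of days 0 and 3 had r of 0.13, 0.135 and 0.398 in their deviations over all genes tested. This does not show that the numbers pair libraries. With the replicate number as a block 4 were called: Ajuba, Arhgef17, Tgfb2 (adjusted p = 0.0394) and Amotl2 (adjusted p = 0.0455), while F3 was not (adjusted p = 0.0501).

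**Figure D2:**
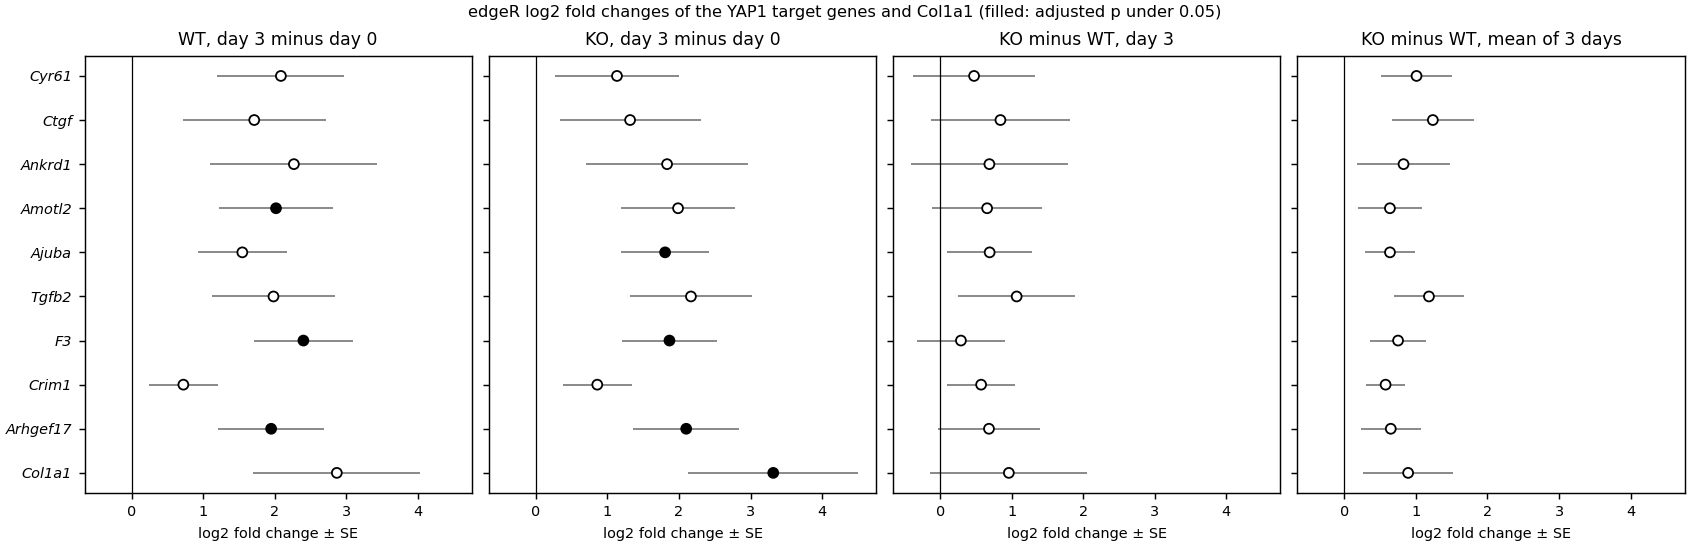
Log2 fold changes with SE (horizontal axis, log2 units) of the 9 YAP1 target genes and Col1a1 from the edgeR fit, for day 3 minus day 0 in WT and KO and for KO minus WT on day 3 and averaged over 3 days; filled points have an adjusted p under 0.05. All points lie right of 0; 3 of the 9 are filled in each day comparison and none in the label comparisons.

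These counts rested on single libraries. In WT the count fell to 1 without any 1 of day 0 libraries 1 and 2 and day 3 libraries 1, 2 and 3. That 1 was F3, whose call is a description, so no other gene of the 9 was called there. The count was 9 of 9 without day 0 library 3, the highest of its group in all 9 genes (log2 fold changes 1.31 to 4.16). Of all genes tested, 52.6% were called in either direction without that library, and 39.4% to 41.7% without 1 of the other 5. In KO the count was 0 without day 0 library 2, day 3 library 2 or day 3 library 3, 1 (F3) without day 0 library 3, and 2 without day 0 library 1 or day 3 library 1, with 30.6% to 36% of all genes called in either direction. Among single-hyphen libraries alone 5 were called in WT (Cyr61, Amotl2, Ajuba, F3 and Arhgef17) and 4 in KO (Amotl2, Ajuba, Tgfb2 and Arhgef17), with 46.1% and 39.8% of all genes called. The stromal markers moved with these genes: 19 of 24 rose in WT and 21 of 24 in KO, with medians of 2.32 and 3.01, and their part in the result was not tested.

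Col1a1 had a larger log2 fold change than any of the 9, 2.87 ± 1.17 SE in WT (edgeR adjusted p = 0.0530, short of the threshold) and 3.32 ± 1.19 in KO (adjusted p = 0.0363). It had 29.2, 217 and 2011 CPM in WT day 0, 1288, 73.6 and 1078 CPM in WT day 1, and 5096, 6285 and 5106 CPM in WT day 3. Its KO levels were 1394, 380.0 and 1443 CPM on day 0, 1371, 851 and 3388 CPM on day 1, and 8273, 11748 and 12061 CPM on day 3. Counted against Col1a1 within each library, which needs no scaling between libraries, the group means of the 9 genes were lower on day 3 than on day 0. For F3 in WT the mean rested on day 0 library 1, at 16.9 counts per 1000 Col1a1 counts from 6 F3 counts. Day 0 libraries 2 and 3 had 0 and 0.320, against 0.220 to 0.547 on day 3. Cyr61 went from 133 ± 54.0 to 47.7 ± 8.45 counts per 1000 Col1a1 counts in WT (SD, n = 3) and from 148 ± 24.3 to 34.5 ± 3.10 in KO. Ctgf went from 274 ± 130 to 77.3 ± 30.7 in WT and from 285 ± 24.4 to 70.8 ± 34.2 in KO. For Tgfb2 the ratio was 14.6 ± 4.83 on day 0 and 5.77 ± 0.675 on day 3 in WT, and 15.1 ± 3.10 and 6.21 ± 1.35 in KO. The libraries of the 2 days did not overlap for 8 of the 9 genes in WT, F3 being the exception, and for 9 of 9 in KO, but 85% and 91.7% of all other genes tested fell in the same way, a share close to that of the 9.

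**Figure D3:**
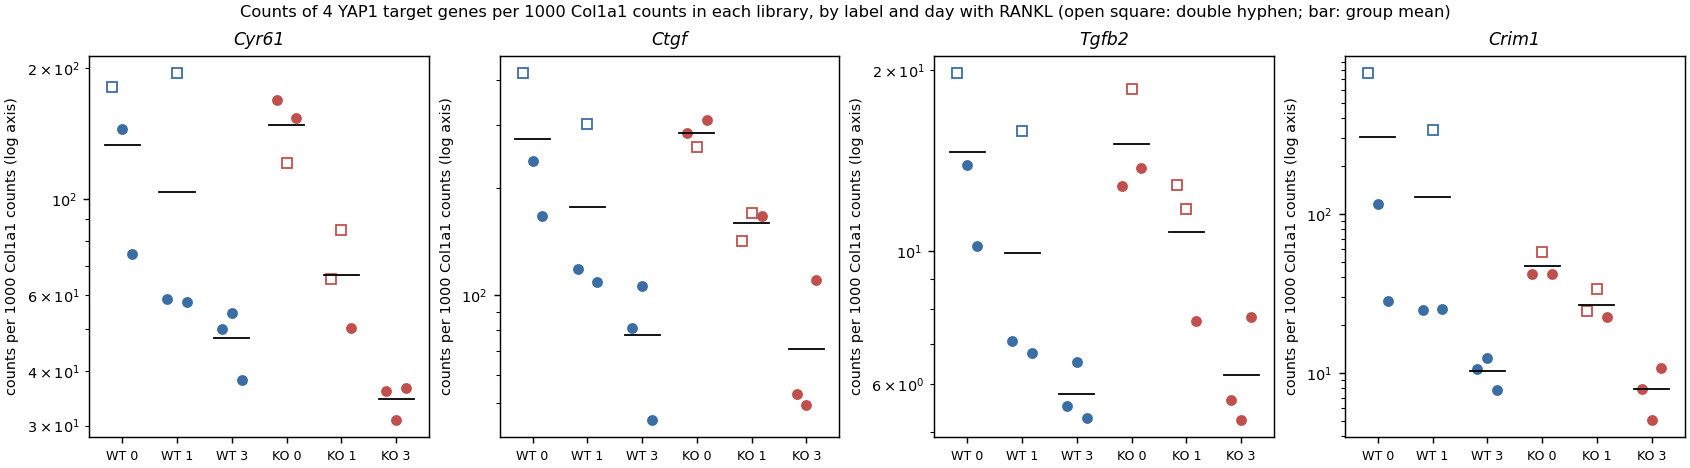
Counts per 1000 Col1a1 counts (log axis) of Cyr61, Ctgf, Tgfb2 and Crim1 in each library, by label and day with RANKL; open squares are double-hyphen libraries and bars are group means. The day 3 libraries lie below all day 0 libraries of their label in all 4 genes, for Cyr61 at 30.96 to 54.6 against 74.6 to 181.

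After 1 day of RANKL no YAP1 target gene was called in either label, and 0 of 9 had an unadjusted p under 0.05 (0 called by the DESeq2 Wald test). Over all genes 2.35% were called in WT and 0.0211% in KO, and 20.5% and 10.2% had an unadjusted p under 0.05. The log2 fold changes ran from -0.45 (Tgfb2) to 0.58 (F3) in WT and from -0.60 (Cyr61) to 0.89 (F3) in KO, with medians of 0.09 and -0.03. In WT the sign for Tgfb2 depended on the libraries used: it was 1.71 without day 0 library 3 and 0.03 without the double-hyphen day 1 library.

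The second comparison asks whether the genes differed between the labels. None of the 9 was called by edgeR on day 0 (background 0.119% of all genes), day 1 (0.112%), day 3 (0.14%) or in the average over the days (1.59%). The DESeq2 Wald test also called 0 on each. All 9 log2 fold changes (KO minus WT) were above 0 in each of the 4 comparisons, at 0.43 (Ajuba) to 1.43 (Cyr61) on day 0, 0.56 (Amotl2) to 1.63 (Ctgf) on day 1 and 0.29 (F3) to 1.07 (Tgfb2) on day 3. With single-hyphen libraries alone the ranges were 0.36 to 1.38, 0.63 to 2.07 and 0.28 to 1.06 on days 0, 1 and 3. KO day 1 then held 1 library, library 3, where Ctgf had 566 CPM against 195 and 144 CPM in libraries 1 and 2. Both day 0 groups held 2. On day 0 the values rested on single libraries: Cyr61 was 0.89 without WT library 1 and 3.19 without WT library 3, and these 2 libraries also gave 0.71 and 3.30 for Ctgf, 0.02 and 1.46 for Ajuba, and 0.04 and 2.02 for Arhgef17. The signs within 1 comparison are not independent, since the genes rose and fell together between libraries.

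On day 1 Ankrd1 (0.67) turned to -1.36 without KO library 3, and to -0.60 with the replicate number as a block. On day 3 it (0.69) turned to -0.19 without KO library 3, and F3 turned to -0.0044 without WT library 3. Under the second threshold, which the study's methods use for these comparisons (unadjusted p under 0.05 and fold change above 1.5 or below 0.66), 0 of 9 passed on days 0, 1 and 3, against 2.89%, 3.34% and 4.82% of all genes passing higher, and 0 of 9 had an unadjusted p under 0.05 on any of these days, against 7.59%, 7.9% and 10.7% of all genes.

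Averaged over the days, the median log2 fold change of the 9 was 0.75, against -0.00 over all genes. Ctgf (1.24 ± 0.57 SE, unadjusted p = 0.0464, adjusted p = 0.262 by edgeR) and Tgfb2 (1.18 ± 0.49, unadjusted p = 0.0287, adjusted p = 0.210) passed the second threshold, which 7.79% of all genes passed higher. Cyr61 was at 1.01 ± 0.50 (adjusted p = 0.298), F3 at 0.75 ± 0.39 (0.320), Ajuba at 0.64 ± 0.35 (0.353) and Crim1 at 0.58 ± 0.28 (0.282). Arhgef17 was at 0.65 ± 0.42 (0.430), Amotl2 at 0.64 ± 0.45 (0.477) and Ankrd1 at 0.83 ± 0.65 (0.534). With title style as a covariate 5 of the 9 were called (Cyr61, Ctgf, Ajuba, Tgfb2 and Arhgef17, adjusted p from 0.0177 to 0.0273), where 9.68% of all genes were. Without WT day 0 library 3, 4 were called (Cyr61, Ctgf, Amotl2 and Tgfb2) and 10.5% of all genes. With single-hyphen libraries alone 0 of 9 were called, with Cyr61 at 1.04 (adjusted p = 0.106).

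On day 3, the KO libraries stood above all WT libraries for 4 of the 9 genes (Amotl2, Ajuba, Tgfb2 and Arhgef17), as for 15.9% of all genes, and for Col1a1. The 24 stromal markers all had log2 fold changes above 0 on day 3 (median 1.03, none called). So did 6 of 6 endothelial markers (median 2.43, none called, 5 with an unadjusted p under 0.05; summed level 21.4 to 81.8 CPM in KO and 4.80 to 15.7 CPM in WT) and 6 of 6 smooth muscle or pericyte markers (median 1.22, none called; 2412 to 4072 CPM in KO and 847 to 2155 CPM in WT), while all 10 osteoclast markers had log2 fold changes below 0 (median -0.56, none called). Averaged over the days, the median log2 fold change was 0.94 for the stromal markers (24 of 24 above 0, 1 called), 1.83 for the endothelial markers (6 of 6 above 0, 2 called) and 1.23 for the smooth muscle or pericyte markers (6 of 6 above 0, 1 called). The part of these markers in the levels of the 9 genes was not tested.

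Whether the change from day 0 to day 3 differed between the labels was tested directly, as the interaction of label and day. It was called for 0 of the 9 genes, 0 of which had an unadjusted p under 0.05, and for 0% of all genes (769 of 14241, 5.4%, had an unadjusted p under 0.05). The 9 differences had a median of -0.03 on the log2 scale.

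The spread between libraries of 1 group was large, and Col1a1 shared it. Each gene's log2 CPM was taken as its deviation from the mean of its group and compared with that of Col1a1 over the 18 libraries, with an exact 2-sided permutation of libraries within groups (46656 orders) and adjustment over the 9 genes. All other genes gave a background of 17% with r above 0 and an unadjusted exact p under 0.05, a bound that 8 of the 9 passed. The Pearson correlation was 0.986 for Tgfb2 (p = 4.29e-05, adjusted 0.000154), 0.973 for Arhgef17 (adjusted p = 0.000331), 0.969 for Cyr61 (0.000154), 0.968 for Amotl2 (0.000193), 0.967 for Ajuba (0.000154), 0.947 for Ctgf (0.000154), 0.914 for Ankrd1 (0.000154) and 0.662 for Crim1 (0.000338). Spearman's rank correlation ran from 0.777 (Crim1, permutation p = 0.000922, adjusted 0.00118) to 0.971 (Ajuba, permutation p = 0.000279, adjusted 0.000418) in these 8. F3 showed no such relation (r = 0.038, exact permutation p = 0.945, adjusted 0.945; Spearman's rank correlation 0.063, p = 0.847, adjusted 0.847), and its counts were 0 to 56.

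Without the 2 libraries farthest from the median of Col1a1, WT day 0 libraries 1 and 3, r was 0.857 to 0.971 for 7 of these 8 genes and 0.571 for Crim1 (exact permutation, adjusted p at most 0.00203), and -0.101 for F3. Because the double-hyphen libraries were low in both Col1a1 and the targets, the relation was recomputed within the 13 single-hyphen libraries, a choice made after the data were seen. There r was 0.962 for Cyr61, 0.958 for Amotl2, 0.924 for Ajuba and 0.968 for Tgfb2 (exact permutation, 288 orders, adjusted p = 0.0469 each). It was 0.851 for Ctgf, 0.733 for Ankrd1, 0.692 for Crim1, 0.952 for Arhgef17 and 0.872 for F3, with adjusted p from 0.104 to 0.222 (exact permutation). By Spearman's rank correlation 0 of 9 passed in these libraries (lowest adjusted p = 0.0625 by exact permutation, for Cyr61, Amotl2, Ajuba and Tgfb2). Over all other genes 4.24% had r above 0 and an unadjusted exact p under 0.05 there, as 4 of the 9 did. KO day 1 library 3 is the 1 single-hyphen library of its group, so its deviation is 0 there by construction. The 5 double-hyphen libraries are too few for a value of their own. These tests take the libraries as independent, although libraries with the same number may come from 1 animal.

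**Figure D4:**
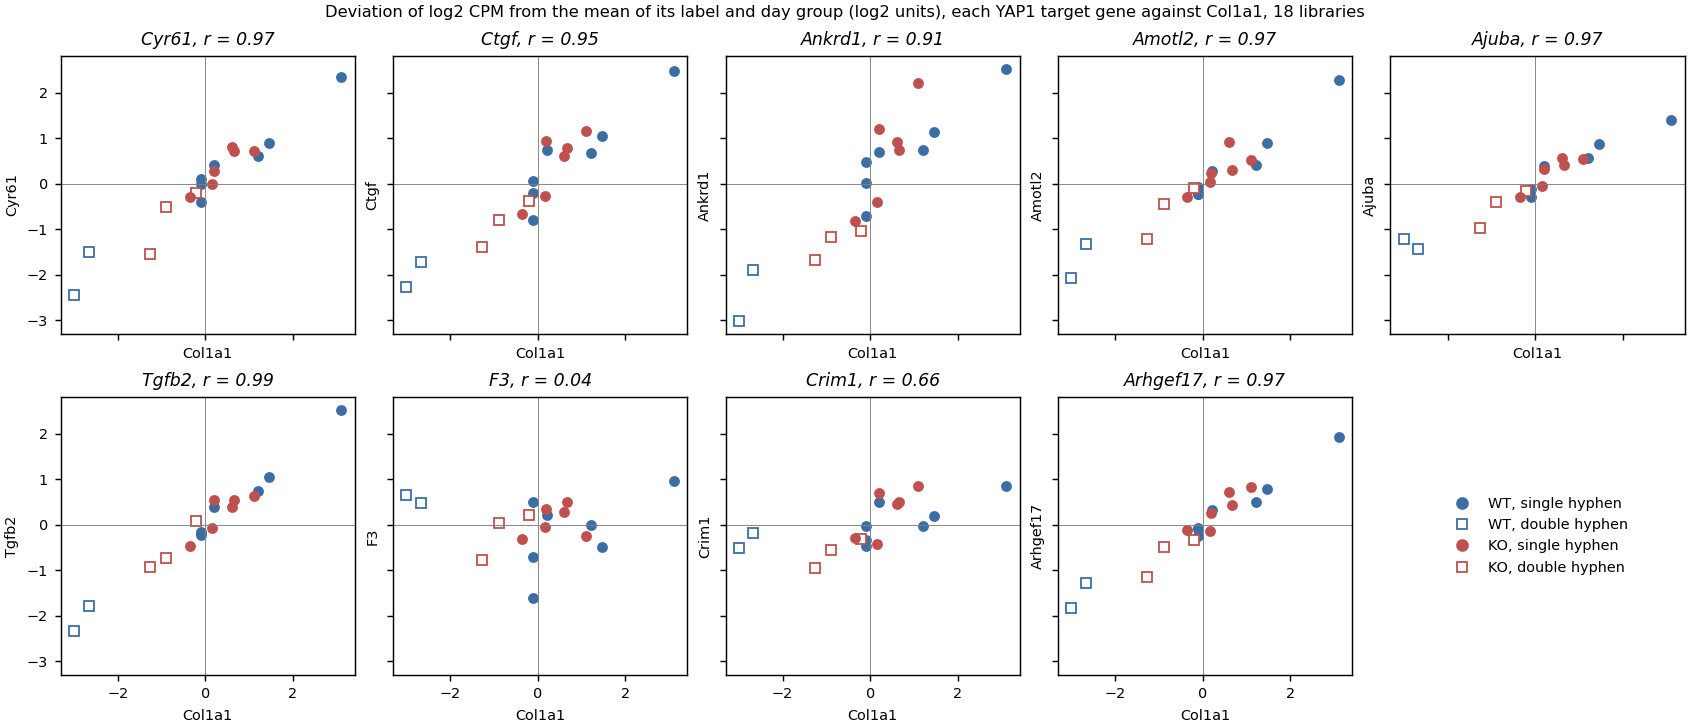
Deviation of log2 CPM from the group mean (log2 units) of each YAP1 target gene (vertical) against that of Col1a1 (horizontal) in the 18 libraries; blue is WT, red is KO, open squares are double-hyphen libraries. The points run along a line in 7 genes (r from 0.914 to 0.986), more loosely in Crim1 (0.662), and without order in F3 (0.038).

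Over all 18 libraries, days and labels included, the genes most like the 9 were found by the correlation of log2 CPM with the mean of their z-scores among 14232 other genes. The first 5 were Tgfb3 (r = 0.992), Acta2 (0.9898), Sulf1 (0.9897), Enah (0.989) and Fhl2 (0.988). Col1a1 was in place 74 (0.974). Of the factors the genes answer to, Tead3 was in place 56 (0.977), Yap1 in place 130 (0.968), Wwtr1 in place 188 (0.962), Tead2 in place 744 (0.898), Tead4 in place 889 (0.879) and Tead1 in place 1845 (0.755). The libraries share day, label and title style, so these values describe likeness only. F3 was the member least like the others: its correlation with each of the other 8 was 0.548 to 0.707.

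Yap1 had 0.824, 3.48 and 24.0 CPM in WT day 0 and 35.8, 49.3 and 33.9 CPM in WT day 3, and it rose there (log2 fold change 2.06 ± 0.82 SE, edgeR adjusted p = 0.0484) with 1.95 in KO (adjusted p = 0.0640). Wwtr1 rose in KO (2.10 ± 0.76, adjusted p = 0.0375) with 1.80 in WT (adjusted p = 0.0615), and Tead3 rose in KO (1.93 ± 0.75, adjusted p = 0.0498). The calls of Yap1 and Tead3 lay close to the threshold. With 1 library left out, the value for Yap1 in WT ran from 1.56 to 4.21. In KO it ran from 1.75 to 2.44 for Wwtr1 and from 1.58 to 2.64 for Tead3. Tead1, Tead2 and Tead4 were not called in either label, and none of the 6 factors was called between labels. In the average over the days 2 of 6, Wwtr1 and Tead1, had an unadjusted p under 0.05, as did 2622 of all 14241 genes. On day 1 these were 2 of 6, Tead1 and Tead4, against 7.9% of all genes. Of 14 Hippo pathway genes, kinases and their partners, 1 was called higher and 2 lower in WT, and 3 higher and 0 lower in KO, from day 0 to day 3. Of all 14241 genes tested, 3370 were called higher and 3773 lower in WT, and 2873 and 3173 in KO.

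Other YAP1 targets from a published signature did not all move as the 9 did. Of its 14 further genes 13 were tested (Foxf2 was not), and from day 0 to day 3 in WT 6 rose and 3 fell, with 5 and 1 in KO. Over all 14241 genes tested 3370 rose and 3773 fell in WT, with 2873 and 3173 in KO. The 2 largest rises in each label were among Dock5, an exchange factor that osteoclasts use for their actin ring (3.20 ± 0.46 SE in WT, edgeR adjusted p = 8.78e-05, and 2.21 ± 0.44 in KO, adjusted p = 0.00142), Ccdc80, a matrix protein (2.59 in WT, adjusted p = 0.0225, and 2.48 in KO, adjusted p = 0.0294), and Rbms3, an RNA-binding protein (2.81, adjusted p = 0.00409, with 2.21 in WT, adjusted p = 0.0121). On day 3 Dock5 was lowest of its group in KO library 3 (126.6 CPM), the library in which all 9 YAP1 target genes were highest.

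Nuak2, a kinase of the AMPK family, fell in both labels, by 1.16 ± 0.18 on the log2 scale in WT (edgeR adjusted p = 0.000144) and by 1.23 ± 0.18 in KO (adjusted p = 0.000165). Gadd45a, a growth arrest gene, fell in WT by 2.29 ± 0.81 (adjusted p = 0.0300). In KO its log2 fold change was -2.00 ± 0.80 (edgeR adjusted p = 0.0554), short of the threshold. On day 1 in WT, Myof, a membrane repair protein, was the 1 gene of this list called (0.65 ± 0.16, edgeR adjusted p = 0.0488). The call ended, with 0 of all genes called, under the replicate block, with only the groups compared, and without WT day 1 single-hyphen library 1 or library 2.

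Between the labels 1 of these 13 genes was called, in the average over the days: Igfbp3, which binds insulin-like growth factors, was higher in KO (3.26 ± 0.69 SE on the log2 scale, edgeR adjusted p = 0.0369). It had 0, 0.851 and 9.72 CPM in WT day 0, 0.180, 0.333 and 0.413 CPM in WT day 1, and 1.19, 1.18 and 6.56 CPM in WT day 3. The KO libraries had 11.3, 2.15 and 14.6 CPM on day 0, 6.15, 22.4 and 10.7 CPM on day 1, and 15.7, 18.5 and 37.2 CPM on day 3. Its labels did not overlap on days 1 and 3 and did overlap on day 0, through WT library 3. On no single day was it called: the log2 fold change was 1.39 on day 0, 5.39 on day 1 and 3.00 on day 3 (edgeR adjusted p = 0.845, 0.359 and 0.370). The WT day 1 libraries, behind the largest of these values, held only 3, 4 and 6 Igfbp3 counts.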

How the data were processed

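Bone marrow-derived macrophages of 2 genotype labels were measured by bulk mRNA sequencing (SMARTer kit) on days 0, 1 and 3 with RANKL. The authors deposited 1 table with whole-number read counts and FPKM values for each gene and library. The FPKM values were computed by the authors with StringTie and Ballgown, and for the genes named here they are proportional to the deposited counts in each library. The submitters' processing notes name the builds GRCm38.p4 and mm10; aligner, counting program and versions are not given in the sources used here.

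The tests ran on the raw counts in edgeR 4.0.16 (R 4.3.3): filterByExpr at its default settings, TMM scaling, and 1 quasi-likelihood fit (glmQLFit, glmQLFTest) over the 18 libraries as 6 groups, with Benjamini-Hochberg adjustment over the 14241 genes tested. Standard errors came from the F statistic. Log2 CPM used a prior count of 2. DESeq2 1.42.0 was an alternative. The script was tested on simulated data with 200 changed genes. Ratios to Col1a1 used raw counts. With 3 libraries a group, the precision is set by the spread between libraries; whether they came from separate animals is not stated for each, so p-values may measure technical spread in part. Levels between genes were compared only on the FPKM scale.

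The members, the gene lists and the tests were chosen with earlier results of these data known. Named genes were the 9 members, Col1a1, Yap1, Wwtr1, Tead1 to Tead4, the 5 other genes most like the members, and from 14 further targets those called between labels or, over days, up to 2 a direction with the largest change. Same-numbered KO libraries had r over 0.1 in each of 3 pairs between days 0 and 3 (0.13, 0.135 and 0.398) and days 1 and 3 (0.218, 0.156 and 0.34). This did not hold in WT (0.111, -0.023 and 0.051 between days 0 and 3) or between labels. Different numbers were not compared, and r also went with title style. WT day 0 library 1 had 0.604 with the double-hyphen WT day 1 library 1 and -0.464 with the single-hyphen one. Between KO days 0 and 1 r was 0.501 and 0.598 for libraries 2 and 3, alike in style, and 0.054 for library 1, which changed style. Alternatives were DESeq2 size factors, the DESeq2 Wald test, no filter, a stricter filter (5 CPM in 3 libraries), only the groups compared, a replicate block, title style as a covariate, both WT day 1 libraries numbered 1 summed, each library left out, and, added after the data were seen, single-hyphen libraries alone. Scaling by library totals alone would shift the day 3 minus day 0 median log2 fold change over all genes to 0.33 in WT and 0.29 in KO, from -0.03 and -0.01 under TMM.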

Additional observations from a re-analysis of the deposited data

How the results depend on the processing

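Each count of members called and each log2 fold change named was recomputed under the alternatives. From day 0 to day 3 the count of members called, 3 of 9 in each label, was 6 in WT and 5 in KO with the DESeq2 Wald test (54.6% and 47% of all genes called in either direction), 0 and 5 with only the groups compared (45% and 45.9%), 7 and 5 with title style as a covariate (53% and 43.9%), and 5 and 4 with single-hyphen libraries alone (46.1% and 39.8%). With the replicate block it was 6 in WT (51.7%) and 4 in KO (42.3%), although the numbers are not shown to pair libraries in either label. The block changed no other count of members called. Leaving out 1 library gave 1 to 9 in WT and 0 to 2 in KO. Averaged over the days the label comparison went from 0 members to 5 with title style as a covariate, and to between 0 and 4 with 1 library left out. Members correlated with Col1a1 went from 8 to 4 by Pearson and to 0 by Spearman in single-hyphen libraries alone, and r of F3 turned to -0.101 without the 2 libraries farthest from the median of Col1a1. Signs turned for Ankrd1 between labels (day 1: -0.60 with the replicate block and -1.36 to 1.17 over libraries left out, 1.14 without KO day 1 library 2; day 3: -0.19 to 1.11) and for F3 on day 3 (-0.0044 to 0.58). From day 0 to day 1 only Tgfb2 and F3 in WT and Cyr61 and F3 in KO were compared under the alternatives. There the sign turned for Tgfb2 in WT (0.99 with the replicate block, -0.98 to 1.71 over libraries left out, 0.0314 without the double-hyphen day 1 library) and Cyr61 in KO (0.52 with title style as a covariate). The cause was not tested. Of 149 recomputed counts 128 stayed within 1.5 times, and of 1211 recomputed fold changes 1074 kept their direction and their side of the threshold. Counts that were 0 and stayed 0 are among the 128. This share therefore does not describe the day 3 counts, which moved as given above. F3 is among the members in the counts called, except under the stricter filter, where it could not be fitted. Its counts, 0 to 56, limit every value given for it.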

Other observations

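Taken 1 by 1 rather than as a group, the members differed in the gene most like them over the 18 libraries, by the correlation of log2 CPM. They are named for their values, and the libraries share day, label and title style. Ctgf was closest to Tnfrsf11b, which encodes the RANKL decoy receptor osteoprotegerin (r = 0.989). Tgfb2 was closest to Thbs2 (0.995), and Amotl2 and Arhgef17 were both closest to Parva, an integrin-linked actin adaptor (0.993 each). Crim1 was closest to Srf, the serum response factor (0.949), and its correlation with Col1a1 was 0.810. F3 was closest to Zfp532 (0.940), with 0.685 for Col1a1.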
